A study of Mus musculus with 8 samples.

Results

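Interferon-stimulated genes are the genes that cells switch on when an interferon binds its receptor. A set of 41 mouse genes of this class and of the signalling chain above it was taken by gene symbol from a table of 19301 genes measured in tendon stem cells (TSCs). Of the 41 symbols, 39 had a row in the table, and Mx1 and Mx2 were not analysed here. The 39 genes comprised 6 receptor and transcription factor genes, 4 sensors of RNA or DNA, 4 genes of the OAS family, 3 of the IFIT family, 3 of the ISG15 pathway, 4 restriction factors, 3 of the IFITM family, 4 interferon-inducible GTPases, 3 of the PARP9-DTX3L module and 5 further interferon-stimulated genes.

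The TSCs were primary cells grown out of collagenase-digested mouse patellar tendon, and they were cultured for 4 days in low glucose medium with DMSO (LG, 5.5 mM glucose) or in high fat, high glucose medium with palmitic acid (HFHG). The study used this culture to imitate the raised sugar and fat of diabetes, and mRNA of 4 HFHG and 4 LG libraries was sequenced. The mice were C57BL/6J and the replicates were biological, per the methods. The age of the mice that gave these cells and whether each library came from a separate animal or culture are not given in the sources used here. Both media were fed to cells without an added interferon or virus, as far as the methods say. The p-values therefore measure the spread between these samples, and what sets that spread is not known. High glucose and palmitic acid were applied together, so their effects cannot be told apart.

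Type I interferons bind the receptor made of IFNAR1 and IFNAR2, whose kinases JAK1 and TYK2 phosphorylate STAT proteins. Among these, STAT2 joins IRF9 in the complex ISGF3, which binds the interferon-stimulated response element (ISRE) near the start of its target genes. Interferon gamma acts through another receptor and STAT dimers, which bind the gamma-activated site (GAS). Many products of the induced genes block virus entry, copying or release, and others, such as USP18 and the SOCS proteins, damp the signal. A low, steady level of these transcripts is kept by many cells without infection.

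The 8 libraries held between 34308108 and 37362725 reads, and the members had between 2 reads (Ifitm1 in LG replicate 4) and 32715 reads (Ifitm3 in HFHG replicate 1) in a library. LG replicate 4 lay apart from the other LG libraries: variance between replicates was 7.88 to 11.4 times that of read sampling in its 3 pairs, against 3.42 to 3.95 in the other 3 LG pairs and 3.49 to 4.72 among the HFHG libraries. Tendon genes were found at high levels for Col1a1, at 522 to 541 FPKM in HFHG and 202 to 211 FPKM in LG. Thbs4 was at 364.5 to 374.5 FPKM against 163 to 172 FPKM. Levels were low for Scx and Tnmd, the pair most specific to tendon cells. Scx was at 1.53 to 2.88 FPKM in HFHG and 0.983 to 1.76 FPKM in LG. Tnmd was at 1.01 to 1.19 FPKM in HFHG and 0.22 to 0.916 FPKM in LG. The paper, by qPCR, reported decreased Scx and Tnmd in HFHG medium, and this difference from the libraries was not tested. Of the 9 tendon markers, 7 rose in HFHG and 1 fell, against 34.0% and 30.8% of all tested genes. They summed to 2481 to 2533 FPKM in HFHG and 1599 to 1635 FPKM in LG. Macrophage genes were detected as well. Their levels are given beside the results below, because 10 of the 11 tested markers fell in HFHG. In bulk RNA, fewer cells of a type and less RNA per cell cannot be told apart. Lymphocyte and dendritic markers summed to 1.14 to 1.70 FPKM and endothelial markers to 0.955 to 1.38 FPKM.

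The regulatory sequence that names this class of genes was looked for first. The window from 250 bases before to 50 bases after the annotated gene start, from RefSeq on GRCm38.p6, was found for 31 of the 41 symbols (no entry for Dhx58, Zbp1, Oas2, Usp18, Mx1, Mx2, Parp9, Parp14, Rtp4 and Ifi27). The ISRE core was searched as GAAA, any 2 bases and GAAA, and the GAS as TTC, any 3 bases and GAA, both on either strand, and a GAS overlapped an ISRE core in 2 members, Bst2 and Ifitm3. An ISRE core was present in 15 of the 31 members (48.4%) and in 3.99% of all 27025 genes with an entry. A GAS was present in 11 of the 31 members (35.5%) and in 9.55% of all genes. The ISRE core was found in members of all classes, in 7 of the 14 that rose in HFHG, 4 of the 9 that fell and 4 of the 8 that passed no threshold. The following stretches are shown for the 3 most abundant ISRE-bearing members of each of these 3 classes, because the same letters stand near the start of genes that moved in opposite directions. Each runs 5′ to 3′ along the strand of its gene, with the ISRE core in capitals (reverse complement in Ifit1, Stat2 and Gbp2).
Ifitm3, rose in HFHG (GRCm38.p6 chr7:141010723-141010752, minus strand): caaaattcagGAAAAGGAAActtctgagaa
Ifitm2, rose in HFHG (chr7:140955988-140956017, minus strand): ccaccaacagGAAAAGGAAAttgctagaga
Ifit1, rose in HFHG (chr19:34640794-34640823, plus strand): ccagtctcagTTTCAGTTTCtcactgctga
Bst2, fell in HFHG (chr8:71537577-71537612, minus strand): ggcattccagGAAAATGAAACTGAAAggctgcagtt
Isg15, fell in HFHG (chr4:156200865-156200906, minus strand): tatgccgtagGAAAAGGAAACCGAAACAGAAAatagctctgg
Stat2, fell in HFHG (chr10:128270266-128270295, plus strand): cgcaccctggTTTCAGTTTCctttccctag
Gbp2, not called (chr3:142620594-142620623, plus strand): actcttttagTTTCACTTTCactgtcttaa
Igtp, not called (chr11:58199512-58199541, plus strand): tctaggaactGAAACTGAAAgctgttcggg
Ifih1, not called (chr2:62646206-62646233, minus strand): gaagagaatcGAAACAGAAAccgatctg

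Isg15 carried 3 overlapping cores in a run of 22 bases that began 78 bases before its start. Bst2 carried 2 in a run of 16 bases that began 130 bases before its start. Ifitm3 and Ifitm2 carried the identical core, 2 bases after the start of the former and 46 bases before the start of the latter. The same core also opened the run of Isg15, which fell. Repeated cores were present as well in the windows of Ifitm3, Ifit1, Ifit3, Gbp3 and Irgm1, which rose, and of Oas1a, which fell. A match of letters is a description of the window and does not show that a factor bound there in these cells.

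The interferon genes as a class did not move one way in HFHG. Expression was given as FPKM, which is the number of reads divided by transcript length and by the reads of the library, and the groups were compared with limma on log2(FPKM + 0.1) over 11710 genes. All 39 members passed the filter on low values, Ifitm1 only through the HFHG libraries. Of these, 14 rose, 13 fell and 12 passed no threshold at an adjusted p-value below 0.05. This is 69.2% of the members, against 64.8% of all tested genes, so members were called about as often as any gene. In each direction the shares were 35.9% of the members against 34.0% of all tested genes higher in HFHG, and 33.3% against 30.8% lower. Scaling the libraries by median ratios gave 9 higher and 15 lower members, which moved the share of higher calls from 51.9% to 37.5%. Rescaling them to the same sum gave 16 higher and 10 lower members, a share of 61.5%. Over all called genes the share was 52.5%, and it moved the same ways, to 46.7% and 61%. Without LG replicate 4 there were 13 higher and 14 lower members. With a minimum of 1 FPKM, which Ifitm1 did not reach, 13 of 38 members were higher and 13 lower.

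The differences were small. The median log2 difference of the members was -0.01, against 0.02 over all tested genes, and its median size was 0.18 against 0.25. A difference under 0.5 on the log2 scale was found for 35 of 39 members (89.7%) and for 77.8% of all tested genes. By the fold threshold of the study's methods (a log2 difference above 1 with an unadjusted p-value below 0.05), 1 member was higher (Ifitm1) and 0 were lower, against 3.68% and 1.65% of all tested genes. Every HFHG library lay above every LG library for 11 members and below for 12, where the shares of all tested genes were 31.1% and 28.1%. Added over the 39 genes, the level was 3354 to 3509 FPKM in HFHG and 3025 to 3209 FPKM in LG. Ifitm3, Bst2 and Ifitm2 made up 62.4% to 67.2% of that sum in a library. Without them the sums overlapped, with 1123 to 1151 FPKM in HFHG and 1129 to 1150 FPKM in LG.

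**Figure D1:**
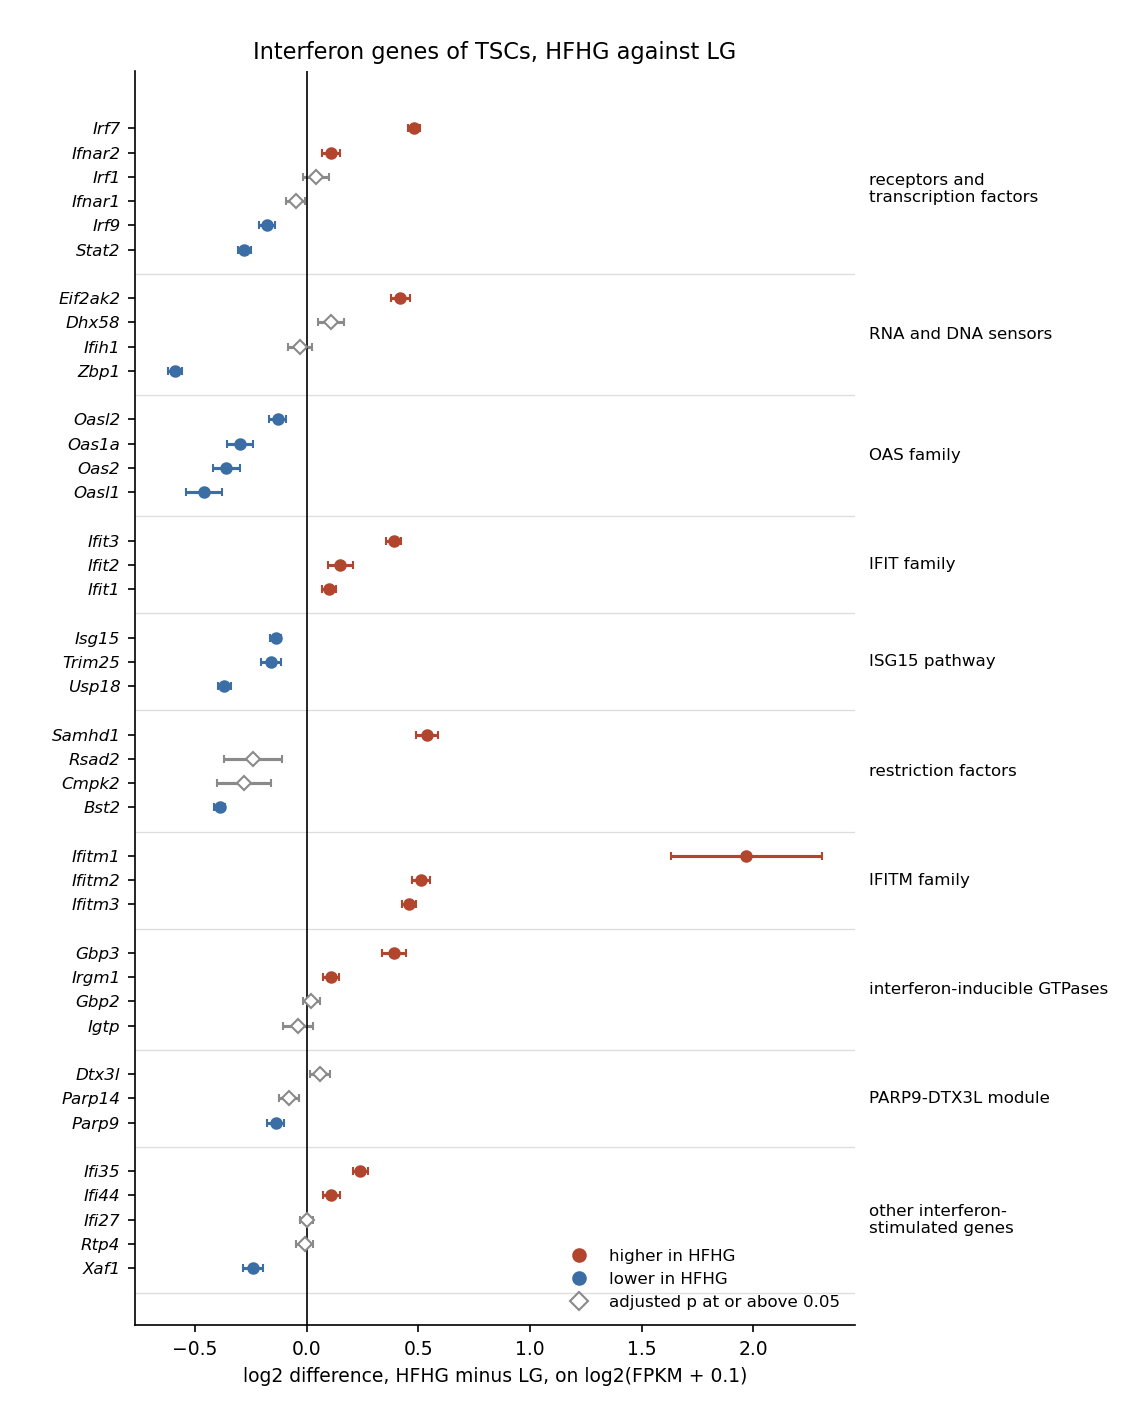
Log2 difference between HFHG and LG (horizontal axis, on log2(FPKM + 0.1)) of the 39 members, grouped by role, with bars of 1 standard error from limma (4 libraries a group). The OAS and ISG15 pathway members lie below 0 and the IFIT and IFITM members above. Ifitm1 stands far to the right with the widest bar.

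The members of these families differed from each other in direction. The families are small and were chosen with earlier results known, so their counts are given as a description. All 4 OAS members and all 3 ISG15 pathway members fell, where 30.8% of all tested genes fell. All 3 IFIT members and all 3 IFITM members rose, where 34.0% of all tested genes rose. Ifitm1 did so past a filter that only its HFHG libraries reached. These signs were the same under the 3 other scalings, although Oasl2 lost its call when libraries were rescaled to the same sum or by quantiles, Trim25 when rescaled to the same sum, and Ifit1 and Ifit2 under median-ratio scaling. Reads of near-identical relatives (Ifitm2 and Ifitm3, Ifit3 and Ifit3b, Oas1a and the other Oas1 genes) may have been split by the counting, whose handling of such reads is not given in the sources used here, so single values in these families are uncertain.

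At the top of the chain, the receptor genes hardly differed. Ifnar2, which codes for a subunit of the type I interferon receptor, was at 18.3, 17.2, 16.9 and 16.9 FPKM in the 4 HFHG libraries and at 16.0, 16.6, 15.3 and 16.1 FPKM in LG. Its groups did not overlap, but the difference was 0.11 ± 0.04 (log2, standard error, limma adjusted p = 0.0258) and was lost under median-ratio scaling (adjusted p = 0.108) and without HFHG replicate 1 (0.0851), LG replicate 1 (0.052) or LG replicate 3 (0.0788). Ifnar1, its partner subunit, was at 12.1 to 12.7 FPKM in HFHG and at 12.5 to 13.5 FPKM in LG, with a log2 difference of -0.05 and a 95% interval of -0.14 to 0.04.

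The transcription factors split. Irf7, which drives and amplifies type I interferon genes (GRCm38 chr7:141262706-141266481, minus strand), was at 112, 114, 116 and 112 FPKM in HFHG and at 81.0, 79.9, 78.8 and 84.9 FPKM in LG. All HFHG libraries were above all LG libraries, a 1.40-fold difference (log2 0.48 ± 0.028, limma adjusted p = 9.28e-09). Stat2 went the other way, with 29.3, 30.3, 30.7 and 29.7 FPKM in HFHG against 37.4, 36.6, 35.9 and 36.4 FPKM in LG (log2 -0.28 ± 0.029, adjusted p = 2.57e-06). Irf9, the DNA-binding partner of STAT2 in ISGF3, was at 23.1, 24.5, 24.1 and 24.3 FPKM in HFHG and at 28.3, 26.8, 25.9 and 27.6 FPKM in LG (log2 -0.18 ± 0.036, adjusted p = 0.000913). Irf1, a target and mediator of interferon gamma, was at 7.24 to 8.79 FPKM in HFHG and 7.60 to 7.88 FPKM in LG. Its groups overlapped and the difference was 0.04 (95% interval -0.09 to 0.17).

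Within a library, where scaling cancels, the ratio of Irf7 to Irf9 was 4.73 ± 0.118 in HFHG and 2.99 ± 0.0966 in LG (mean ± SD of FPKM ratios, n = 4). This pair and those that follow were chosen after their values were seen, so the ratios are given as a description.

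**Figure D2:**
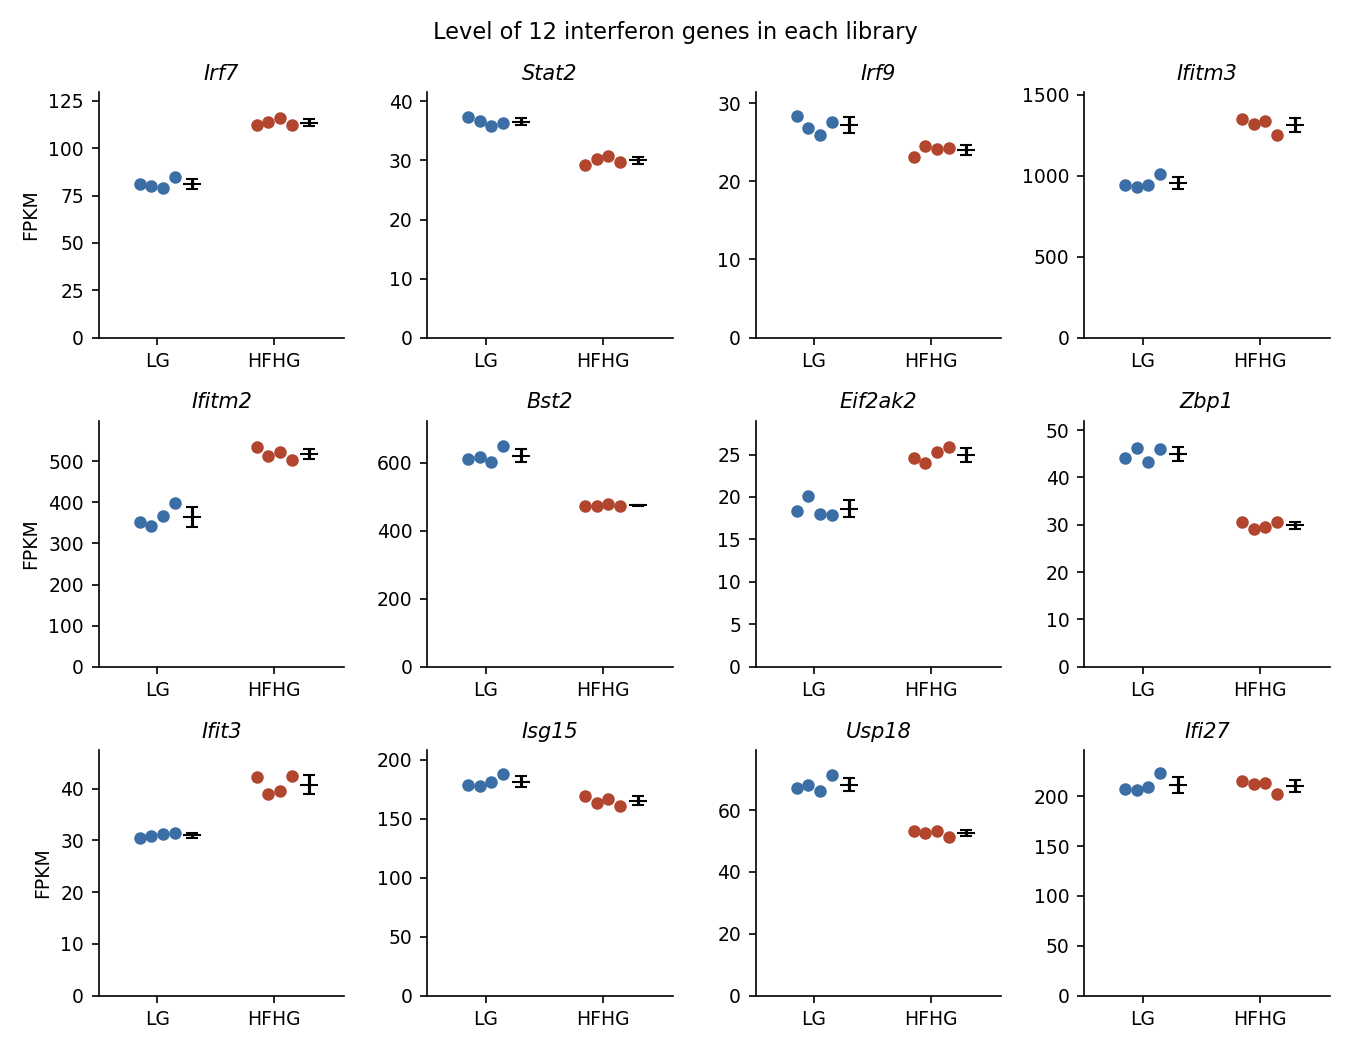
FPKM of 12 members in each library (points, axes from 0), with the mean and SD of 4 libraries a group beside them. Irf7, Ifitm3, Ifitm2, Eif2ak2 and Ifit3 are higher in HFHG, Stat2, Irf9, Bst2, Zbp1, Isg15 and Usp18 are lower, and the groups overlap for Ifi27.

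Among the sensors, the protein kinase PKR and the Z-nucleic acid sensor ZBP1 moved apart. Eif2ak2, which codes for PKR and shuts down translation when it binds double-stranded RNA, was at 24.6, 24.0, 25.3 and 25.9 FPKM in HFHG and at 18.4, 20.1, 18 and 17.9 FPKM in LG (log2 0.42 ± 0.043, limma adjusted p = 2.22e-06). Zbp1, which can start necroptosis (chr2:173206612-173218923, minus strand), was at 30.5, 29.0, 29.5 and 30.5 FPKM in HFHG and at 44.1, 46.3, 43.3 and 45.9 FPKM in LG. With a log2 difference of -0.59 ± 0.033 (adjusted p = 7.23e-09) it had the lowest value of all 39 members. In neither gene did the groups overlap, and the ratio of Eif2ak2 to Zbp1 was 0.835 ± 0.0229 in HFHG against 0.414 ± 0.0182 in LG. Ifih1, which codes for the RNA sensor MDA5, was at 9.0 to 10.2 FPKM in HFHG and 9.30 to 10.1 FPKM in LG. Dhx58, which codes for its regulator LGP2, was at 10.1 to 11.4 FPKM and 9.46 to 10.8 FPKM. The groups overlapped in both, with 95% intervals of -0.15 to 0.08 and -0.02 to 0.23 on the log2 scale.

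The OAS genes code for synthetases that answer double-stranded RNA with oligoadenylates, and for OAS-like relatives, some of which lack that activity. Oas1a was at 13.0, 13.9, 11.3 and 12 FPKM in HFHG and at 15.8, 15.2, 16.0 and 14.8 FPKM in LG. Oas2 was at 5.20, 5.41, 4.82 and 4.89 FPKM in HFHG and at 6.92, 6.57, 6.64 and 6.01 FPKM in LG. Oasl1 was at 2.16, 2.43, 2.44 and 1.97 FPKM in HFHG and at 3.22, 3.07, 3.13 and 3.08 FPKM in LG. Every HFHG library was below every LG library for these 3 genes and for Oasl2 (31.5 to 34.8 against 35.3 to 37.5 FPKM). The log2 differences ran from -0.46 ± 0.081 for Oasl1 through -0.36 ± 0.061 for Oas2 and -0.30 ± 0.059 for Oas1a to -0.13 ± 0.037 for Oasl2, with limma adjusted p-values of 0.000282, 0.000219, 0.000648 and 0.00844. Oasl1 and Oasl2 are neighbours on chromosome 5, with 11005 bases between them. Further OAS genes outside the members did not fall. Oas1c (log2 0.26 ± 0.11), Oas1g (0.24 ± 0.12) and Oas3 (0.08 ± 0.13) lay above 0 and passed no threshold.

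The IFIT proteins bind foreign RNA ends and slow their translation. Ifit3 was at 42.2, 39.0, 39.6 and 42.4 FPKM in HFHG and at 30.4, 30.8, 31.3 and 31.4 FPKM in LG, a 1.31-fold difference without overlap (log2 0.39 ± 0.034, limma adjusted p = 5.23e-07). Ifit1 rose by less, from 50.4 ± 1.83 to 54.2 ± 1.47 FPKM (SD, n = 4; log2 0.10 ± 0.033, adjusted p = 0.0157). The ratio of Ifit3 to Ifit1 was 0.716 to 0.771 in HFHG and 0.590 to 0.657 in LG. Ifit2 had overlapping groups, with 12.5 to 13.7 FPKM in HFHG and 11.2 to 13.3 FPKM in LG. Its call (log2 0.15 ± 0.055, adjusted p = 0.0294) was lost in 8 of 18 alternatives. Those were median-ratio scaling, no filter on low values, and leaving out HFHG replicate 1, 2 or 4 or LG replicate 1, 3 or 4, with adjusted p-values between 0.0521 and 0.0801. The 3 genes lie in 1 cluster on chromosome 19, with 7111 bases between Ifit2 and Ifit3 and 52139 bases between Ifit3 and Ifit1.

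ISG15 is a ubiquitin-like protein that is joined to other proteins, and USP18 takes it off again and also blocks the interferon receptor. Isg15 was at 169.5, 163, 167 and 161 FPKM in HFHG and at 179, 178, 181 and 188 FPKM in LG. Usp18 (chr6:121245906-121270917, plus strand) was at 53.3, 52.6, 53.1 and 51.4 FPKM in HFHG and at 67.1, 68.2, 66.3 and 71.2 FPKM in LG. Neither overlapped between the groups, and the fall was larger for Usp18 (log2 -0.37 ± 0.029, limma adjusted p = 1.69e-07) than for Isg15 (-0.14 ± 0.026, adjusted p = 0.000573), with a ratio of Isg15 to Usp18 of 3.11 to 3.18 in HFHG and 2.61 to 2.73 in LG. Trim25 codes for a ubiquitin ligase that acts on the RNA sensor RIG-I. It was at 17.5 to 19.2 FPKM in HFHG and 19.1 to 21.7 FPKM in LG (log2 -0.16 ± 0.045, adjusted p = 0.00820). Outside the members, genes for the joining of ISG15 were mixed. Ube2l6 rose (log2 0.32 ± 0.044, limma adjusted p = 3.21e-05), Herc6 fell (-0.23 ± 0.072, adjusted p = 0.0146) and Uba7 passed no threshold (-0.01 ± 0.076).

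The restriction factors act at separate steps of a virus's life. Bst2, also called tetherin, holds budding virus at the cell surface (chr8:71534255-71537456, minus strand). It was at 474, 474, 478 and 473 FPKM in HFHG and at 613, 618, 604 and 649 FPKM in LG, which was lower in every HFHG library (log2 -0.39 ± 0.024, limma adjusted p = 1.75e-08). Samhd1, which breaks down the nucleotides needed for reverse transcription, was at 7.71, 8.16, 7.78 and 8.06 FPKM in HFHG and at 5.19, 5.37, 5.52 and 5.64 FPKM in LG. It was higher in every HFHG library (1.45-fold, log2 0.54 ± 0.049, adjusted p = 8.22e-07). Rsad2, which codes for viperin, and its neighbour Cmpk2, a nucleotide kinase 12751 bases away on chromosome 12, had low levels. Rsad2 was at 1.09 to 1.61 FPKM in HFHG and 1.34 to 1.75 FPKM in LG, and Cmpk2 at 0.939 to 1.15 FPKM and 1.12 to 1.62 FPKM. Both overlapped, with log2 differences of -0.24 ± 0.13 and -0.28 ± 0.12 that passed no threshold (adjusted p = 0.118 and 0.0629). Rsad2 was called without HFHG replicate 1 (adjusted p = 0.0193) and under quantile normalization (0.0221), and Cmpk2 without LG replicate 4 (0.0248), under quantile normalization (0.00984) and under median-ratio scaling (0.0386), each as lower in HFHG.

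The IFITM proteins sit in cell membranes and hinder the fusion of enveloped viruses. Ifitm3 was the most abundant member and ranked 37th of all 19301 genes by mean FPKM. It was at 1351, 1317, 1335 and 1254 FPKM in HFHG and at 945, 928, 942 and 1012 FPKM in LG (1.37-fold, log2 0.46 ± 0.031, limma adjusted p = 4.44e-08). Ifitm2 was at 534, 512, 522 and 504 FPKM in HFHG and at 351, 342, 366 and 398 FPKM in LG (1.42-fold, log2 0.51 ± 0.04, adjusted p = 1.9e-07). In both genes LG replicate 4 was the highest of its group and still below every HFHG library. Ifitm1 lies between them on chromosome 7, with 11233 bases to Ifitm2 and 39760 bases to Ifitm3, and was nearly silent. It had 26, 71, 34 and 33 reads in HFHG and 10, 10, 10 and 2 reads in LG, or 0.805 to 2.32 FPKM against 0.0650 to 0.337 FPKM. Its log2 difference of 1.97 ± 0.34 (adjusted p = 0.000267) rests on these few reads and on the pseudocount, since it was 0.84 with a pseudocount of 1, below the fold threshold, and 2.4 with 0.01. Without LG replicate 4 it was 1.62. Only its HFHG libraries took Ifitm1 past the filter, so a high HFHG value was a condition of its test. Its call is therefore given as a description, and Ifitm1 was not tested when an HFHG library was left out.

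Ifitm3 and Bst2, the 2 most abundant members, changed in opposite directions. Within a library the ratio of Ifitm3 to Bst2 was 2.85, 2.78, 2.79 and 2.65 in HFHG and 1.54, 1.5, 1.56 and 1.56 in LG. The means were 2.77 ± 0.0854 and 1.54 ± 0.0271 (SD, n = 4), and the groups did not overlap.

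**Figure D3:**
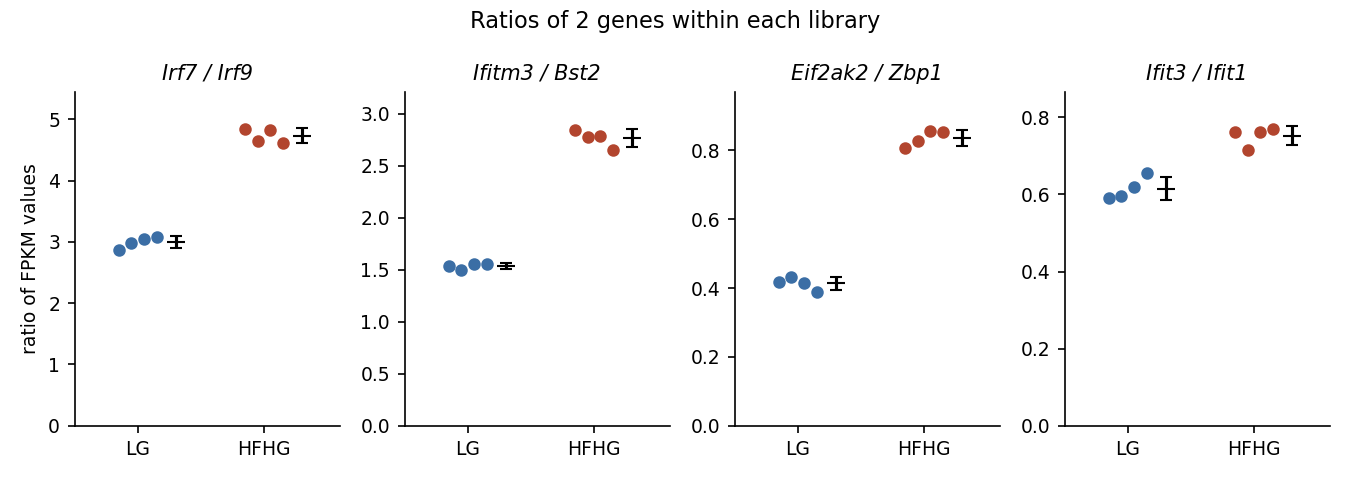
Ratio of the FPKM values of 2 genes within each library (points, axes from 0), with the mean and SD of 4 libraries a group. For all 4 pairs the HFHG libraries lie above the LG libraries, for example at 4.62 to 4.85 against 2.86 to 3.08 for Irf7 over Irf9.

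The interferon-inducible GTPases guard against microbes inside the cell, and most are targets of interferon gamma. Gbp3, a guanylate-binding protein gene, was at 13.1, 13.0, 13.3 and 13.0 FPKM in HFHG and at 10.9, 10, 10.2 and 8.95 FPKM in LG (log2 0.39 ± 0.055, limma adjusted p = 4.27e-05), without overlap. Its neighbour Gbp2 was at 14.1 to 15.0 FPKM and 13.7 to 14.6 FPKM, with a difference of 0.02 (95% interval -0.06 to 0.11). Irgm1 was at 44.7 to 46.7 FPKM in HFHG and 40.3 to 44.7 FPKM in LG (log2 0.11 ± 0.035, adjusted p = 0.0174). Igtp was at 12.6 to 16.4 FPKM and 14.1 to 14.9 FPKM, with a difference of -0.04 (95% interval -0.18 to 0.11). The call of Irgm1 was lost under median-ratio scaling (adjusted p = 0.094).

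PARP9 and DTX3L form a complex that joins ADP-ribosylation with ubiquitination, and PARP14 is an ADP-ribosyltransferase of the same family. Parp9 and Dtx3l lie head to head on chromosome 16 on opposite strands, and their annotated ends overlap by 682 bases. Parp9 was at 16.9 to 17.6 FPKM in HFHG and 18.2 to 19.7 FPKM in LG (log2 -0.14 ± 0.037, limma adjusted p = 0.00623). Dtx3l was at 10.4 to 10.7 FPKM and 9.44 to 10.7 FPKM (log2 0.06, 95% interval -0.04 to 0.16), and Parp14 at 7.75 to 8.25 FPKM and 8.04 to 8.64 FPKM (log2 -0.08, 95% interval -0.18 to 0.02). Whether reads were counted by strand is not given in the sources used here, so reads in the shared stretch of Parp9 and Dtx3l may belong to either gene. The call of Parp9 was lost when libraries were rescaled to the same sum (adjusted p = 0.128).

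Of the 5 further interferon-stimulated genes, Ifi35, whose product pairs with NMI, was at 27.7, 29.2, 29.3 and 29.0 FPKM in HFHG and at 23.8, 24.1, 24.2 and 25.51 FPKM in LG (log2 0.24 ± 0.034, limma adjusted p = 5.35e-05). Xaf1, an antagonist of the cell death inhibitor XIAP, was at 17.4, 16.9, 18.1 and 17.4 FPKM in HFHG and at 21, 18.8, 21.7 and 20.8 FPKM in LG (log2 -0.24 ± 0.046, adjusted p = 0.000565). Neither overlapped between the groups. Ifi44 was at 41.3 to 44.4 FPKM and 38.1 to 42.5 FPKM, with a call (log2 0.11 ± 0.037, adjusted p = 0.0194) that was lost under median-ratio scaling (0.0901) and without HFHG replicate 3 (0.0587). Ifi27, the fourth most abundant member, was at 202 to 215 FPKM in HFHG and 206 to 223 FPKM in LG, with a 95% interval of the log2 difference of -0.07 to 0.06. It was called as higher in HFHG under quantile normalization (log2 0.0699, adjusted p = 0.0111) and when libraries were rescaled to the same sum (0.0554, adjusted p = 0.0423). Rtp4 was at 21.3 to 22.5 FPKM and 21 to 23.5 FPKM, with a 95% interval of -0.10 to 0.08.

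Interferon transcripts themselves were at the edge of detection. Of the 21 interferon ligand symbols listed, 7 had a row, and none reached the filter. Ifnb1, the interferon beta gene, had 3, 0, 4 and 0 reads in HFHG and 0, 0, 1 and 0 reads in LG (exact two-sided permutation p = 0.429). The limit that 0 reads sets is 3 reads, or 0.104 to 0.114 FPKM of Ifnb1 in a library. Ifng had 2 reads in all 8 libraries together, and Ifne, Ifnk and Ifnl3 had 1 each. Ifnz, a type I interferon of the mouse, was at 0.165, 0.0773, 0.437 and 0.206 FPKM in HFHG and at 0.199, 0.151, 0.135 and 0.404 FPKM in LG (exact two-sided permutation p = 0.943). Ifnab was listed at 0.218 FPKM in 1 LG library and at 0 in the others. No difference was thus detected among the ligands with a row, and all of them but Ifnz had very few reads at this depth. The limits cover counting error only.

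The other genes of the pathway were mixed as well. Over 130 further pathway genes with a row, 107 were tested, and 34 rose and 32 fell, or 61.7% called against 64.8% of all tested genes. Among receptors, kinases and regulators, 9 of 18 tested genes rose and 4 fell, where 34.0% of all tested genes rose and 30.8% fell. This list thus leaned upward, and whether it did so by more than all genes was not tested. Jak1, the kinase shared by the interferon receptors, was at 74.3, 73.2, 73.5 and 75.1 FPKM in HFHG and at 138, 140.4, 140.1 and 131 FPKM in LG. It was lower in every HFHG library (log2 -0.89 ± 0.027, limma adjusted p = 2.6e-11). Ifngr1, the ligand-binding subunit of the interferon gamma receptor, rose from 23.1 to 24.9 FPKM in LG to 32.6 to 35.1 FPKM in HFHG (log2 0.48 ± 0.035, adjusted p = 9.06e-08). Among inhibitors of the pathway, Pias1 (log2 0.54 ± 0.071) and the phosphatase gene Ptpn1 (0.47 ± 0.046) rose, with adjusted p-values of 2.7e-05 and 1.66e-06. The feedback inhibitor gene Socs3 (-0.41 ± 0.035) and the phosphatase gene Ptpn2 (-0.22 ± 0.048) fell, with adjusted p-values of 4.04e-07 and 0.00118. Socs1, another SOCS gene, rose (log2 0.34 ± 0.084, limma adjusted p = 0.00350), so the SOCS genes did not move 1 way.

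In nucleic acid sensing, 7 of 19 tested genes rose and 7 fell (36.8% each way, against 34.0% and 30.8% of all tested genes). Mavs, the adaptor of the RNA sensors on mitochondria, was at 13.1 to 15.1 FPKM against 11.5 to 12.2 FPKM (log2 0.29 ± 0.05, limma adjusted p = 0.000239). Trex1, a DNA exonuclease gene, was called with overlapping groups, at 9.20 to 11.8 FPKM against 8.36 to 10.1 FPKM (log2 0.22 ± 0.078, adjusted p = 0.0231). The largest falls were those of Zc3hav1, an antiviral zinc finger protein gene (16.0 to 16.5 against 21.9 to 22.8 FPKM, log2 -0.46 ± 0.033), and of the endosomal RNA receptor genes Tlr3 (-0.44 ± 0.068) and Tlr7 (-0.40 ± 0.09). Ddx58, which codes for RIG-I, was at 27.7 to 30.1 FPKM in HFHG and 25.8 to 28.1 FPKM in LG (log2 0.12 ± 0.039, adjusted p = 0.0167). Its call was lost under median-ratio scaling (0.0694) and without HFHG replicate 4 (0.0517) or LG replicate 3 (0.0524), and that of Trex1 in 5 of 18 alternatives (up to 0.0748, among them without HFHG replicate 3 or LG replicate 2 or 3).

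Of the 70 further interferon-stimulated genes tested, 18 rose, 21 fell and 31 passed no threshold. These shares were 25.7% higher and 30.0% lower, against 34.0% and 30.8% of all tested genes. The median log2 difference of the 70 genes was 0.01. The largest rises were Ifi27l2a, a relative of Ifi27, at 8.97, 9.60, 9.34 and 8.80 FPKM in HFHG against 3.30, 4.09, 3.07 and 3.31 FPKM in LG (log2 1.40 ± 0.079, limma adjusted p = 8.41e-09), and Gbp5, at 1.72, 1.63, 1.44 and 2.15 FPKM against 0.598, 0.903, 0.588 and 0.651 FPKM (1.23 ± 0.15, adjusted p = 1.18e-05). These 2 alone passed the fold threshold. Pml, the scaffold gene of nuclear bodies, was at 10.5 to 11.1 FPKM against 6.66 to 6.92 FPKM (log2 0.68 ± 0.042). The largest falls were Ifi203 (6.19 to 8.04 against 12.2 to 14.1 FPKM, log2 -0.89 ± 0.074), Mndal (3.68 to 5.09 against 7.98 to 8.82 FPKM, -0.86 ± 0.087) and Plscr1 (18.5 to 19.7 against 28.3 to 30.2 FPKM, -0.62 ± 0.035). Ifi203 and Mndal belong to 1 family of closely related DNA-binding proteins, which may share reads. Isg20, an antiviral nuclease gene, was at 2.54 to 3.26 FPKM in HFHG and 2.68 to 3.60 FPKM in LG and passed no threshold (adjusted p = 0.645). Cxcl10, a chemokine gene that answers interferon gamma, was at 1.97 to 2.98 FPKM against 1.91 to 2.13 FPKM. Its groups overlapped, and its call (log2 0.29 ± 0.11, adjusted p = 0.0425) was lost in 9 of 18 alternatives (adjusted p up to 0.212), among them those without HFHG replicate 1 or 4 and without LG replicate 1, 3 or 4.

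**Figure D4:**
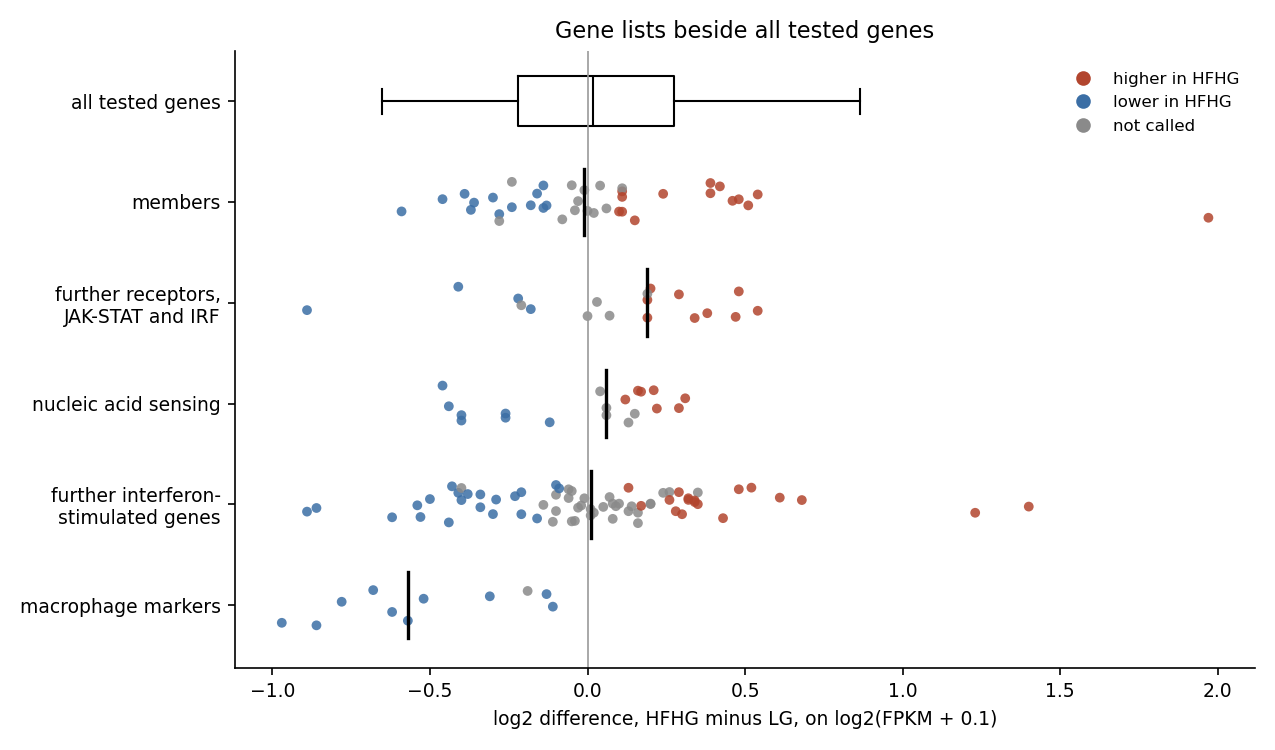
Log2 difference between HFHG and LG (horizontal axis, on log2(FPKM + 0.1)) of each tested gene of 5 lists, with the list's median as a black bar, under a box of all 11710 tested genes (box from the 25th to the 75th percentile, whiskers from the 5th to the 95th). The members spread to both sides of 0 around a median of -0.01, and the macrophage markers lie below 0 with a median of -0.57.

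Macrophages carry many interferon-stimulated genes, and their markers differed between HFHG and LG. Of 12 markers, 11 were tested, 10 fell in HFHG and none rose, where 30.8% of all tested genes fell. The groups of Csf1r overlapped (7.59 to 8.41 against 8.29 to 9.03 FPKM). Its call (limma adjusted p = 0.0314) held in 11 of 18 alternatives, and that of Lyz2 in 17 of 18. The markers summed to 1789 to 1838 FPKM in HFHG and 1986 to 2076 FPKM in LG, most of it from Lyz2 (1615 to 1662 against 1736 to 1811 FPKM). Without Lyz2 the sums were 170 to 176 FPKM and 250 to 266 FPKM. Adgre1, the F4/80 gene, was at 25.3 to 27.9 FPKM against 36.7 to 39.3 FPKM (log2 -0.52 ± 0.039, limma adjusted p = 1.29e-07), and C1qa at 18.1 to 19.1 FPKM against 33.9 to 39.8 FPKM (-0.97 ± 0.048, adjusted p = 2.58e-09). Cd163 was at 0.0123 to 0.0439 FPKM in all libraries, and no marker was at 0 in all. These genes fell together with the OAS and ISG15 pathway members, Bst2, Zbp1, Stat2, Irf9, Parp9 and Xaf1. The members that went the opposite way were those of the IFIT and IFITM families, Irf7, Samhd1, Eif2ak2, Gbp3, Irgm1, Ifi35, Ifi44 and Ifnar2. The part of macrophages in any of these differences was not tested.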

How the data were processed

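The samples were 8 mRNA libraries of mouse TSCs, 4 from HFHG medium (glucose at 25.5 mM with palmitic acid at 300 µM, doses from the paper) and 4 from LG medium, made with a stranded kit. The authors deposited FPKM values per gene and library, without pooling replicates. The submitters' processing notes name HISAT2 2.1.0 and mm10, while the counting program and annotation are not given in the sources used here. All columns of per-sample values were used.

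The FPKM of 19301 of 19301 genes (100%) were whole multiples of 1 read, which gave the reads behind them (rebuilt values within a relative error of 2.7e-13). The gene length recovered with them lay within 0.8 to 1.25 times the GENCODE transcript range for 75.4% of 10687 well-covered genes, and the reads of Ifnab, above 0 in 1 library only, are uncertain. Genes at 0.5 FPKM or more in at least 4 libraries were tested (11710 genes) with limma 3.58.1 in R 4.3.3 (lmFit, eBayes with trend) on log2(FPKM + 0.1), HFHG minus LG without covariates, with Benjamini-Hochberg adjustment over all tested genes. Log2 differences understate the change of low genes. On simulated data with 198 changed genes among 11515 tested, 197 were called. The number of unchanged genes called there is not given here. How often differences as small as those of most members are called was not tested. Ligands below the filter were compared by an exact two-sided permutation test over 70 arrangements, which cannot give a p-value below 0.0286. Gene coordinates are those of the GENCODE M21 release for GRCm38 (a symbol match was found for 96.2% of the genes), and promoter windows from RefSeq GRCm38.p6. Intervals are 95% intervals of the limma fit without adjustment over genes.

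Oas1c, Oas1g, Oas3, Ube2l6, Herc6, Uba7 and Socs1 were named beside related genes. Named by rule are all members, the 3 called genes with the largest positive and negative difference of each pathway list, the ligands with any read, and Isg20, Cxcl10 and Ddx58. Macrophage, lymphocyte, endothelial and tendon markers were listed as checks. The members, lists and tests were chosen with earlier results of these data known. Mx1, Mx2 and some genes that this rule names are not reported here. The alternatives were pseudocounts of 1 and 0.01, no filter, a minimum of 1 FPKM, 3 other scalings, a robust eBayes, the replicate number as a block, each library left out, and voom on the recovered reads, which was added after seeing the data.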

Additional observations from a re-analysis of the deposited data

Results flagged for a closer look

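In 3 of the 122 sets of 4 libraries examined, 1 library lay far from the other 3, with a gap, as a share of the whole range, beyond Dixon's 95% critical value for 4 values. Chance gives about 1 in 20 such sets. Ifitm1 was at 0.0650 FPKM (2 reads) in LG replicate 4, against 0.319 to 0.337 FPKM in the other LG libraries. Ifit2 was at 13.3 FPKM in LG replicate 2, against 11.2 to 11.5 FPKM in the others, and without that library its difference was 0.20 on the log2 scale. Bst2 was at 478 FPKM in HFHG replicate 3, against 473 to 474 FPKM in the other HFHG libraries, a gap far smaller than the difference from the LG libraries.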

How the results depend on the processing

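Of the 27 called members, 19 kept their call and direction in every one of the 18 alternatives that could be fitted for them (13 for Ifitm1, which did not reach the filter in the others), 8 lost the call in at least 1 and none changed direction. Of the 12 members that passed no threshold, 5 passed it in at least 1 alternative and 7 changed sign in at least 1. Leaving out each library in turn gave 11 to 14 higher and 13 to 14 lower members, 29 to 35 higher and 28 to 35 lower pathway genes, 7057 to 7480 called genes and 535 to 607 genes past the fold threshold. A pseudocount of 1 put 303 genes past the fold threshold rather than 624, since it shrinks low genes, and median-ratio scaling left 9 of 14 higher members. Rescaling to the same sum turned the log2 differences of Ifnar1 (0.0054), Ifih1 (0.0258), Igtp (0.0229), Rtp4 (0.0508), Ifi27 (0.0554) and Isg20 (2.41e-05) to the other side of 0, quantile normalization that of Ifi27 (0.0699) and median-ratio scaling that of Gbp2 (-0.0147). The cause was not tested. Leaving out single libraries moved Irf1 between -0.006 and 0.0857, Igtp between -0.111 and 0.0148, Rtp4 between -0.0336 and 0.021, Ifi27 between -0.0152 and 0.0209, and Isg20 between -0.12 and 0.0321. With the replicate number as a block, 14 members were higher and 13 lower and 7342 genes were called. The numbers did not pair the samples (correlations of deviations from -0.074 to -0.006, and 0 libraries closest to their own number). Voom, chosen after seeing the data, also gave 14 and 13. The planned permutation test without a log for members under the filter was not run, because no member was under it. Few reads limit Ifitm1, Rsad2, Cmpk2 and the interferon ligands.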
